A study of Mus musculus with 8 samples.

Results

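The genes described here are 10 components of the Notch pathway: the receptors Notch1, Notch2 and Notch3, the ligands Jag1, Jag2 and Dll1, and the target genes Hes1, Hey1, Hey2 and Heyl. They were found by symbol in the authors' 3 comparison tables, each symbol on 1 row, and make 10 of the 50600 genes listed in each table. The study used embryonic fibroblasts of C57BL/6 mice transduced with GHMT retroviruses, which encode Gata4, Hand2, Mef2c and Tbx5, factors known to turn fibroblasts towards heart muscle cells. Cells were cultured for 7 days in StemPro-34 SFM with 1% DMSO, with 5 µM I-CBP112, a ligand of the CBP and p300 bromodomains, with 5 µM C646, an inhibitor of the acetyltransferase activity of both proteins, or with 0.1% ethanol. Each treatment had 2 libraries, 8 in all, and every group carried the GHMT viruses, so no group shows untransduced fibroblasts. The sources used here do not give the solvent of either inhibitor, so an effect of the solvent and one of the compound cannot be told apart. The labels number the libraries 2 and 3 in every treatment, and do not say whether a number marks a shared batch of cells or whether the libraries of a treatment came from separate cultures; if they did not, the p-values measure technical spread.

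Notch receptors are cut when a Jagged or Delta-like ligand on a neighbouring cell binds them, first by ADAM proteases and then by gamma-secretase. The freed intracellular domain enters the nucleus, joins the DNA-binding protein RBPJ and a Mastermind-like protein, and draws in CBP and p300 to switch on genes such as those of the Hes and Hey transcriptional repressors. In the heart the pathway is known for its part in forming valves, trabeculae and vessel walls, and in fibroblasts blocking it has been reported to favour cardiac reprogramming.

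Each table compares a treatment with an unnamed group, read here as ethanol because ethanol has no table of its own. Of 2312 genes with a mean normalised count under 0.16, 596 had a log2 fold change under -0.5 in all 3 tables, as a group outside the 3 treatments would give. The tables hold 1 value per comparison, so levels are given per treatment: the mean normalised count, rebuilt from the overall mean and the 3 fold changes, with a standard error (SE) rebuilt from the deposited errors. The sum of these levels over all genes was 38573386 with DMSO, 37516607 with I-CBP112, 37834625 with C646 and 38066585 with ethanol; read depth per library is not known here. C646 and ethanol were closer to each other than the deposited errors alone would give: over 14830 tested genes the median absolute Wald statistic (fold change over its SE) was 1.1 for DMSO, 0.880 for I-CBP112 and 0.348 for C646, against 0.674 for a standard normal. The fibroblast markers made up 1.43% of all normalised counts with DMSO, 1.21% with I-CBP112, 2.24% with C646 and 2.26% with ethanol, and all 8 of them had counts. The corresponding shares for 8 cardiomyocyte markers were 0.646%, 0.719%, 0.258% and 0.253% in the same order of treatments. In bulk RNA, fewer cells of a type and less RNA per cell cannot be told apart.

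**Figure D1:**
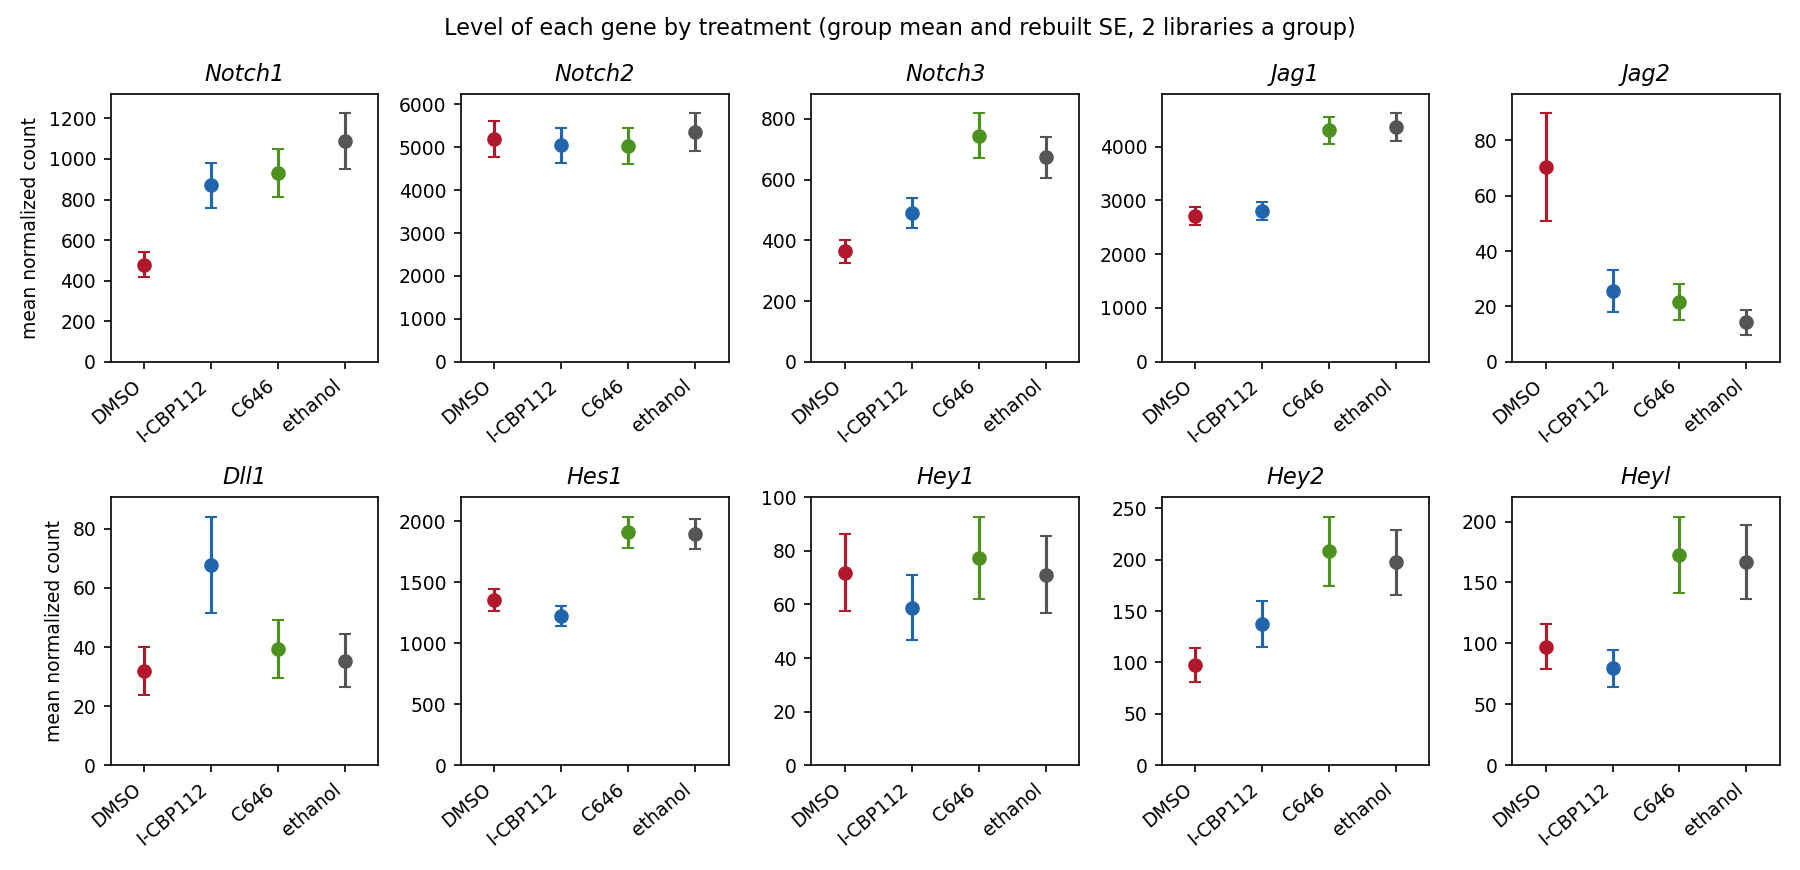
Mean normalised count of each gene with DMSO, I-CBP112, C646 and ethanol; points are group means over 2 libraries and bars are rebuilt SEs, with each vertical axis starting at 0. Jag1, Hes1 and Heyl sit lower with DMSO and I-CBP112 than with C646 and ethanol, Notch1 is lowest with DMSO at 479, and Notch2 lies between 5032 and 5350 in all 4 groups.

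Promoter sequence was at hand for 7 of the 10 genes, in RefSeq windows of 300 bases on GRCm38.p6 that run from 250 bases before to 50 after an annotated start. Hes1, Hey1 and Heyl had no window, so Hey2 is the only target gene searched. The 4 windows printed here belong to Notch1, Notch3, Jag1 and Hey2, whose RNA was lower with DMSO than with ethanol, and are shown because these genes moved the same way. Capitals mark the core of the RBPJ site, TGGGAA, and the N-box bound by Hes proteins, CACNAG, each searched on both strands. Positions are counted from the annotated start, the first of the 50 bases after it being 0. Notch1 is at chr2:26503773-26504072, Notch3 at chr17:32166841-32167140, Jag1 at chr2:137116471-137116770 and Hey2 at chr10:30842734-30843033, all on the minus strand and printed 5′ to 3′ in the direction of transcription. The Notch1 window lies inside the longer gene span of GENCODE M21, which starts further upstream.
Notch1: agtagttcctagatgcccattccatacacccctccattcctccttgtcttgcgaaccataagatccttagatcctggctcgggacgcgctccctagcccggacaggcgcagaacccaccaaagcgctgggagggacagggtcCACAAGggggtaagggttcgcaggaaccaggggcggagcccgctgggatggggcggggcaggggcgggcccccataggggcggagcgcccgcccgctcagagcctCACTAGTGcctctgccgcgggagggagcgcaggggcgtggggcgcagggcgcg
Notch3: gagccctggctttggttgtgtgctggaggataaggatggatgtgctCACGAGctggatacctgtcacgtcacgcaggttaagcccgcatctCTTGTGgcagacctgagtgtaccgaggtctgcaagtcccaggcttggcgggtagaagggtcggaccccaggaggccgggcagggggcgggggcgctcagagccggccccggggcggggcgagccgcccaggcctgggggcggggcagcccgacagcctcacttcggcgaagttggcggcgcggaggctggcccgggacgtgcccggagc
Jag1: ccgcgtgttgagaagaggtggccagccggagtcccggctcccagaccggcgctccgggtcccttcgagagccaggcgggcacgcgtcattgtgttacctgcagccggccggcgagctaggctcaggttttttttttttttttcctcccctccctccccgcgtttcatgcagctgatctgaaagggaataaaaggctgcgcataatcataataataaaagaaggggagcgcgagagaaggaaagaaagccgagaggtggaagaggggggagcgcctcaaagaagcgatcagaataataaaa
Hey2: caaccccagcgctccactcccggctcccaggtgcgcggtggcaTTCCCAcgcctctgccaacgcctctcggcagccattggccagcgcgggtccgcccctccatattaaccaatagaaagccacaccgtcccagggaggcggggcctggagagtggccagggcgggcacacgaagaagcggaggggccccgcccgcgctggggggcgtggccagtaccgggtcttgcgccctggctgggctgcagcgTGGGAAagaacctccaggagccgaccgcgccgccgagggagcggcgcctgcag
The Hey2 window held the RBPJ core at -207, on the opposite strand, and at -3. No RBPJ core was found in the windows of Notch1, Notch2, Notch3, Jag1, Jag2 or Dll1, the last of which has a second window, also without one. Of all 32851 windows in the table, 25.6% hold the core. The N-box was present in the Notch1 window at -108 and, as overlapping matches on the 2 strands, at -3 and -1. In Notch3 it was found at -204 and -159, in Notch2 at -247 and in 1 of the Dll1 windows at 13, and 42.5% of all windows hold it. A match describes the letters only, and the windows say nothing of enhancers elsewhere.

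With DMSO the RNA of most of these genes that passed the test was lower than with ethanol. By the authors' deposited table, a total of 6 of the 10 passed an adjusted p of 0.05 with DMSO, against 16.0% of all 14830 tested genes: 5 fell (Notch1, Notch3, Jag1, Hes1 and Hey2), against 7.90% of tested genes lower, and 1 rose (Jag2), against 8.07% higher. With I-CBP112 3 of the 10 passed in the authors' deposited table, against 9.90% of tested genes: 3 fell (Jag1, Hes1 and Heyl), against 5.25%, and 0 rose, against 4.65%. With C646 0 of the 10 passed in the authors' deposited table, where 0.00584% of 34250 genes passed and 0.00292% in each direction, and 0 of the 10 had an unadjusted p under 0.05. The median log2 fold change of the 10 in the authors' deposited tables was -0.585 for DMSO, -0.390 for I-CBP112 and 0.0605 for C646. Over the 14830 genes tested in the DMSO table it was 0.0346, 0.0150 and 0.00306 in the same order. These 3 comparisons share the ethanol libraries. Every call of these 10 genes rests on the normal distribution of the Wald statistic: under a t distribution, set at 4 degrees of freedom, 0 of the 10 passed in any comparison.

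**Figure D2:**
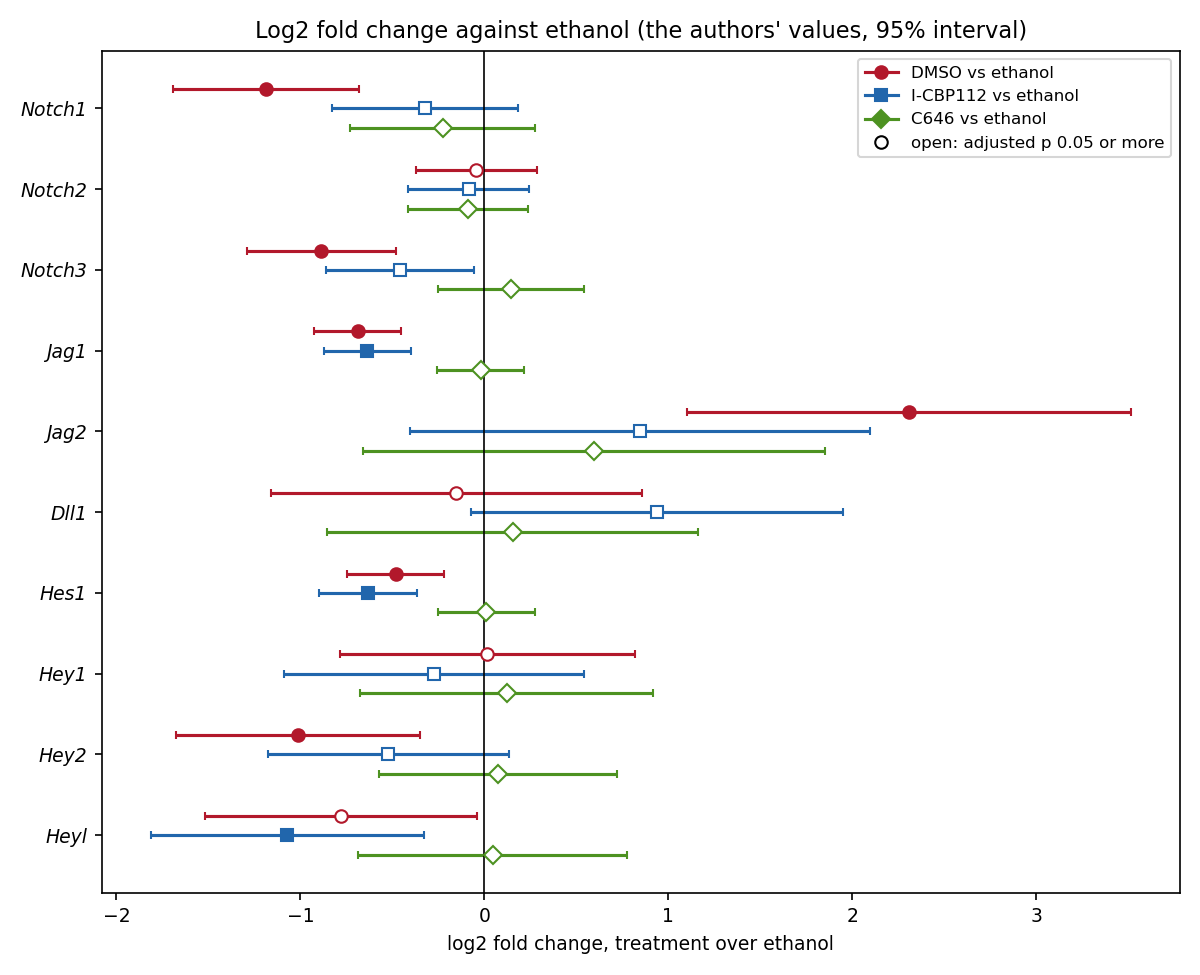
Log2 fold change over ethanol of the 10 genes with DMSO, I-CBP112 and C646, from the authors' deposited tables; bars are 95% intervals, and filled symbols mark an adjusted p below 0.05. Filled symbols lie below 0 for Notch1, Notch3, Jag1, Hes1 and Hey2 with DMSO and for Jag1, Hes1 and Heyl with I-CBP112, and above 0 for Jag2 with DMSO; all C646 symbols are open.

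Among the receptors, Notch1 and Notch3 fell with DMSO, and Notch2 passed the test in none of the comparisons with ethanol. Notch1 (ENSMUSG00000026923.15, chromosome 2 of GRCm38, 26457903 to 26516663, minus strand), the receptor best known from lymphocytes and endothelium, had a level of 479 ± 61.2 with DMSO, 871 ± 110 with I-CBP112, 930 ± 117 with C646 and 1088 ± 137 with ethanol (± rebuilt SE). DMSO stood below the other 3 groups. Its log2 fold change with DMSO was -1.18 ± 0.26 in the authors' deposited table, to 0.440 times the ethanol level (adjusted p = 9.33e-05), and 2.67% of tested genes had a lower one. With I-CBP112 it was -0.32 ± 0.26 (adjusted p = 0.593) and with C646 -0.23 ± 0.26 (adjusted p = 1.00) in the authors' deposited tables, neither below the threshold. From the highest level to the lowest the order was ethanol, C646, I-CBP112 and DMSO. Of the neighbours in it only I-CBP112 and DMSO differed at an adjusted p below 0.05. An opposite-strand gene, 0610009E02Rik, shares 1068 exon bases with Notch1; its mean normalised count of 30.6 is small beside 842 for Notch1, and its log2 fold change with DMSO was -0.24 (adjusted p = 0.882) in the authors' deposited table. Another opposite-strand gene, Gm13568, shares 414 exon bases and had a mean of 8.75. The sources used here do not say whether counting used strand, so reads of such pairs cannot be told apart.

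Notch3 (ENSMUSG00000038146.7, chromosome 17, 32120820 to 32166852, minus strand), the receptor typical of vascular smooth muscle and pericytes, had a level of 364 ± 37.4 with DMSO, 490 ± 49.4 with I-CBP112, 744 ± 73.8 with C646 and 673 ± 67.0 with ethanol. I-CBP112 lay between DMSO and the other groups. The authors' deposited table gives -0.89 ± 0.21 with DMSO (adjusted p = 0.000318), 0.541 times the ethanol level. With I-CBP112 the value was -0.46 ± 0.20, with an unadjusted p of 0.0253 and an adjusted p of 0.162, and with C646 0.15 ± 0.20 (adjusted p = 1.00), both short of the threshold in the authors' deposited tables. No neighbouring pair in the order C646, ethanol, I-CBP112, DMSO differed at an adjusted p below 0.05, although the ends of the order did. With DMSO 7.90% of all tested genes were lower and 8.07% higher by the authors' deposited table. Of 10 markers of smooth muscle and pericytes, 8 fell and 0 rose there. With I-CBP112, where Notch3 did not pass, 3 of them fell, against 5.25% of tested genes, and 0 rose, against 4.65%. The other 7 did not pass in the authors' deposited table, and 4 of the 10 values lay above 0. The 3 that fell were Rgs5 at -1.847, Cspg4 at -1.015 and Pdgfrb at -0.504 in the authors' deposited table. Kcnj8 and Abcc9, also on the list, passed with neither treatment in the authors' deposited tables. Kcnj8 was at 0.749 with DMSO and 0.793 with I-CBP112, and Abcc9 at 0.008 and -0.051. Acta2, at 0.024 with I-CBP112, held most of the summed level of the list in each group, so the sum mainly follows Acta2. The summed share of these 10 markers was 0.235% of normalised counts with DMSO, 0.358% with I-CBP112, 0.347% with C646 and 0.350% with ethanol; none was at 0, and their part in the Notch3 result was not tested. The opposite-strand gene Gm17276 shares 488 exon bases with Notch3 and had a mean normalised count of 5.26, against 568.

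Notch2 (ENSMUSG00000027878.11, chromosome 3, 98013527 to 98150361, plus strand) had the highest level of the 3 receptors per exon length and the narrowest range. Its level was 5190 ± 426 with DMSO, 5041 ± 414 with I-CBP112, 5032 ± 413 with C646 and 5350 ± 439 with ethanol. No call was made for Notch2: in the authors' deposited table the 95% interval of its log2 fold change with DMSO ran from -0.37 to 0.28, with I-CBP112 from -0.41 to 0.24 and with C646 from -0.42 to 0.24. Changes within those limits are not excluded. Per kilobase of exon in GENCODE M21, Notch2 made up 86.0% of the summed level of the 3 receptors with DMSO, 79.3% with I-CBP112, 74.8% with C646 and 75.6% with ethanol. Notch1 made up 6.00%, 10.4%, 10.5% and 11.7% in the same order of treatments, and Notch3 8.04%, 10.3%, 14.7% and 12.7%. These shares carry no test of their own. A same-strand transcript, Gm42820, shares 541 exon bases with Notch2 and had a mean normalised count of 47.9, against 5153.

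Among the ligands, the abundant one fell and a rare one rose with DMSO. Jag1 (ENSMUSG00000027276.7, chromosome 2, 137081456 to 137116644, minus strand), the Jagged ligand needed for heart outflow tract and vessel walls, had a level of 2707 ± 162 with DMSO, 2806 ± 167 with I-CBP112, 4302 ± 254 with C646 and 4361 ± 258 with ethanol. The groups fell into a lower pair, DMSO and I-CBP112, and a higher pair, C646 and ethanol. The log2 fold change with DMSO was -0.69 ± 0.12 (adjusted p = 5.29e-07), 0.621 times the ethanol level, in the authors' deposited table. With I-CBP112 it was -0.64 ± 0.12 (adjusted p = 7.62e-06), 0.643 times, in the authors' deposited table. With C646 it was -0.02 ± 0.12 (adjusted p = 1.00) in the authors' deposited table, with a 95% interval of -0.26 to 0.22. In the order ethanol, C646, I-CBP112, DMSO, the step from C646 to I-CBP112 passed the test, and the steps on either side of it did not. Jag1 was the most precisely measured of the 10, with a rebuilt spread between libraries of 8.22% (coefficient of variation).

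Jag2 (ENSMUSG00000002799.5, chromosome 12, 112907819 to 112929776, minus strand), a second Jagged ligand, had a level of 70.3 ± 19.5 with DMSO, 25.5 ± 7.62 with I-CBP112, 21.5 ± 6.56 with C646 and 14.2 ± 4.60 with ethanol. DMSO was highest, and no test among the other 3 passed. Its log2 fold change with DMSO was 2.31 ± 0.62 (adjusted p = 0.00230) in the authors' deposited table, 4.95 times the ethanol level, and 99.9% of tested genes had a lower one. I-CBP112 had 0.84 ± 0.64 (adjusted p = 0.554) and C646 0.60 ± 0.64 (adjusted p = 1.00) in the authors' deposited tables. At a mean of 32.9 counts and a rebuilt spread of 37.4%, it was the least precise of the 10, and 4.07% of tested genes had a lower mean count. Dll1 (ENSMUSG00000014773.13, chromosome 17, 15367354 to 15376872, minus strand), a Delta-like ligand of somite and neural development, had a level of 31.8 ± 8.20 with DMSO, 67.8 ± 16.3 with I-CBP112, 39.4 ± 9.91 with C646 and 35.3 ± 9.0 with ethanol. I-CBP112 was the highest group, at 0.94 ± 0.52 on the log2 scale in the authors' deposited table, with an unadjusted p of 0.0691 and an adjusted p of 0.317. No neighbours in the order of the Jag2 or Dll1 levels had an adjusted p below 0.05. For Jag2 the 95% interval of I-CBP112 minus DMSO nevertheless ran from -2.62 to -0.31. An opposite-strand gene, A930024N18Rik, shares 867 exon bases with Dll1 and had a mean normalised count of 5.45, against 43.6. Per kilobase of exon, Jag1 held 96.3% of the summed level of the 3 ligands with DMSO, 96.1% with I-CBP112, 98.3% with C646 and 98.6% with ethanol. Jag2 held 2.09%, 0.729%, 0.412% and 0.269% in that order, so its rise left Jag1 the main Jagged RNA in every group.

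Of the 4 target genes, Hes1 was lower with both DMSO and I-CBP112, and Hey2 and Heyl each passed with 1 of them. Hes1 (ENSMUSG00000022528.7, chromosome 16, 30064384 to 30067796, plus strand), a helix-loop-helix repressor induced by Notch in many cell types, had a level of 1357 ± 90.3 with DMSO, 1223 ± 81.7 with I-CBP112, 1910 ± 126 with C646 and 1895 ± 125 with ethanol. As for Jag1, DMSO and I-CBP112 made a lower pair. The authors' deposited table gives -0.48 ± 0.13 with DMSO (adjusted p = 0.00412), 0.716 times the ethanol level. For I-CBP112 the authors' deposited table gives -0.63 ± 0.14 (adjusted p = 0.000106), 0.645 times. C646 had 0.01 ± 0.13 (adjusted p = 1.00) in the authors' deposited table, with a 95% interval from -0.25 to 0.27. In the order C646, ethanol, DMSO, I-CBP112, the step between ethanol and DMSO passed and the other steps did not.

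Hey2 (ENSMUSG00000019789.9, chromosome 10, 30832359 to 30842801, minus strand), a repressor known from ventricular heart muscle and arteries, had a level of 98.0 ± 16.6 with DMSO, 138 ± 22.7 with I-CBP112, 208 ± 33.6 with C646 and 198 ± 31.9 with ethanol. I-CBP112 lay between. Of the windows printed, its own was the one with the RBPJ core, and the other target genes had no window to search. Its log2 fold change with DMSO was -1.01 ± 0.34 (adjusted p = 0.0223), 0.496 times the ethanol level, in the authors' deposited table, and over the 5 alternatives tried the adjusted p ran from 0.0173 to 0.322, with 0.0504 when no low-count genes were filtered out. With I-CBP112 it was -0.52 ± 0.33 (adjusted p = 0.434) and with C646 0.08 ± 0.33 (adjusted p = 1.00) in the authors' deposited tables. Heyl (ENSMUSG00000032744.4, chromosome 4, 123233556 to 123249875, plus strand), a Hey relative typical of mural cells, had a level of 97.4 ± 18.3 with DMSO, 79.6 ± 15.2 with I-CBP112, 172 ± 31.4 with C646 and 167 ± 30.4 with ethanol. DMSO and I-CBP112 again formed the lower pair. For I-CBP112 the authors' deposited table gives -1.07 ± 0.38, 0.476 times the ethanol level, at an adjusted p of 0.0488, just inside the threshold. That call did not hold in 3 of 5 alternatives, whose adjusted p ran from 0.0444 to 0.486: it was 0.0551 with scaling to group totals and 0.110 with no filter. With DMSO Heyl was at -0.78 ± 0.38, with an unadjusted p of 0.0394 and an adjusted p of 0.163, in the authors' deposited table.

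Hey1 (ENSMUSG00000040289.8, chromosome 3, 8663359 to 8667256, minus strand), another Hey repressor, had a level of 71.9 ± 14.4 with DMSO, 58.8 ± 12 with I-CBP112, 77.3 ± 15.4 with C646 and 71.1 ± 14.3 with ethanol. All 4 groups lay within their errors of one another. The 95% interval of its log2 fold change was -0.78 to 0.82 with DMSO and -1.09 to 0.54 with I-CBP112 in the authors' deposited tables. Differences within those limits are not excluded. The sign of the DMSO value, 0.02 in the authors' deposited table, turned to -0.0029 with scaling to group totals and to -0.018 with centring on the median gene. No neighbours in the order of the Hey1, Hey2 or Heyl levels had an adjusted p below 0.05. Per kilobase of exon, Hes1 had 666 with DMSO, 600 with I-CBP112, 938 with C646 and 930 with ethanol, and the 3 Hey genes had between 15.6 and 45.3 across all groups.

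Differences between treatments were tested directly, as the difference of the 2 deposited fold changes over an SE rebuilt from the 3 deposited ones, with a two-sided normal p adjusted by Benjamini-Hochberg over 14830 genes. Each of the 10 genes was compared in 3 pairs of treatments. These pairs reuse the libraries already compared with ethanol, so their results are not independent of those comparisons. Between C646 and DMSO 6 of the 10 differed, against 15.8% of tested genes: 5 were higher with C646, against 7.98%, and 1 was lower, against 7.86%. Notch1 was 1.94 times as high with C646 as with DMSO (0.96 ± 0.26 on the log2 scale, adjusted p = 0.00278) and Notch3 2.04 times (1.03 ± 0.21, adjusted p = 1.52e-05). Jag1 was 1.59 times as high (0.67 ± 0.12, adjusted p = 1.24e-06), Hes1 1.41 times (0.49 ± 0.14, adjusted p = 0.00324) and Hey2 2.12 times (1.09 ± 0.34, adjusted p = 0.0120). Jag2 was lower with C646 (-1.71 ± 0.59, adjusted p = 0.0303). These 6 are the same genes that passed between DMSO and ethanol, with the sign reversed, and C646 differed from ethanol at none of them. With an upper bound of the error, 2 of these 6 were past the threshold, Notch3 and Jag1, and with no filter on low counts Jag2 was not (adjusted p = 0.0685, in a range from 0.0342 to 0.361 over 5 alternatives).

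I-CBP112 and C646, aimed at different parts of the same acetyltransferases and given at the same dose and time, differed at 4 of the 10 genes, against 9.80% of tested genes: 4 were lower with I-CBP112, against 5.11%, and 0 higher, against 4.69%. The solvents of both are not known here, so solvent and compound cannot be told apart in this pair either. Jag1 was 0.652 times as high with I-CBP112 as with C646 (-0.62 ± 0.12, adjusted p = 1.67e-05) and Hes1 0.640 times (-0.64 ± 0.14, adjusted p = 7.27e-05). Notch3 was 0.658 times as high (-0.60 ± 0.20, adjusted p = 0.0356) and Heyl 0.461 times (-1.12 ± 0.38, adjusted p = 0.0376). Jag1, Hes1 and Heyl had also passed between I-CBP112 and ethanol, from the same I-CBP112 libraries. The calls for Jag1 and Hes1 held with the upper bound of the error and with no filter, whereas those for Notch3 and Heyl held with neither; over 6 alternatives the adjusted p ran from 0.0313 to 0.472 for Notch3 and from 0.0343 to 0.476 for Heyl. Notch1 did not pass between these treatments, with a 95% interval of the difference from -0.60 to 0.41. For Hey2 the interval ran from -1.25 to 0.06, and for Notch2 from -0.33 to 0.33.

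I-CBP112 and DMSO differed at 1 of the 10 genes, against 6.97% of tested genes, of which 4.31% were higher and 2.66% lower. That gene, Notch1, was 1.82 times as high with I-CBP112 as with DMSO (0.86 ± 0.26, adjusted p = 0.0179). With the upper bound of the error that adjusted p was 0.375, in a range from 0.0110 to 0.598 over 6 alternatives. Jag1 and Hes1, both below ethanol under each treatment, did not pass between I-CBP112 and DMSO: the 95% interval of the difference was -0.19 to 0.29 for Jag1 and -0.42 to 0.12 for Hes1. Notch3 at 0.43 ± 0.21, Dll1 at 1.09 ± 0.51 and Jag2 at -1.46 ± 0.59 had intervals that left out 0 but adjusted p of 0.252, 0.223 and 0.123.

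**Figure D3:**
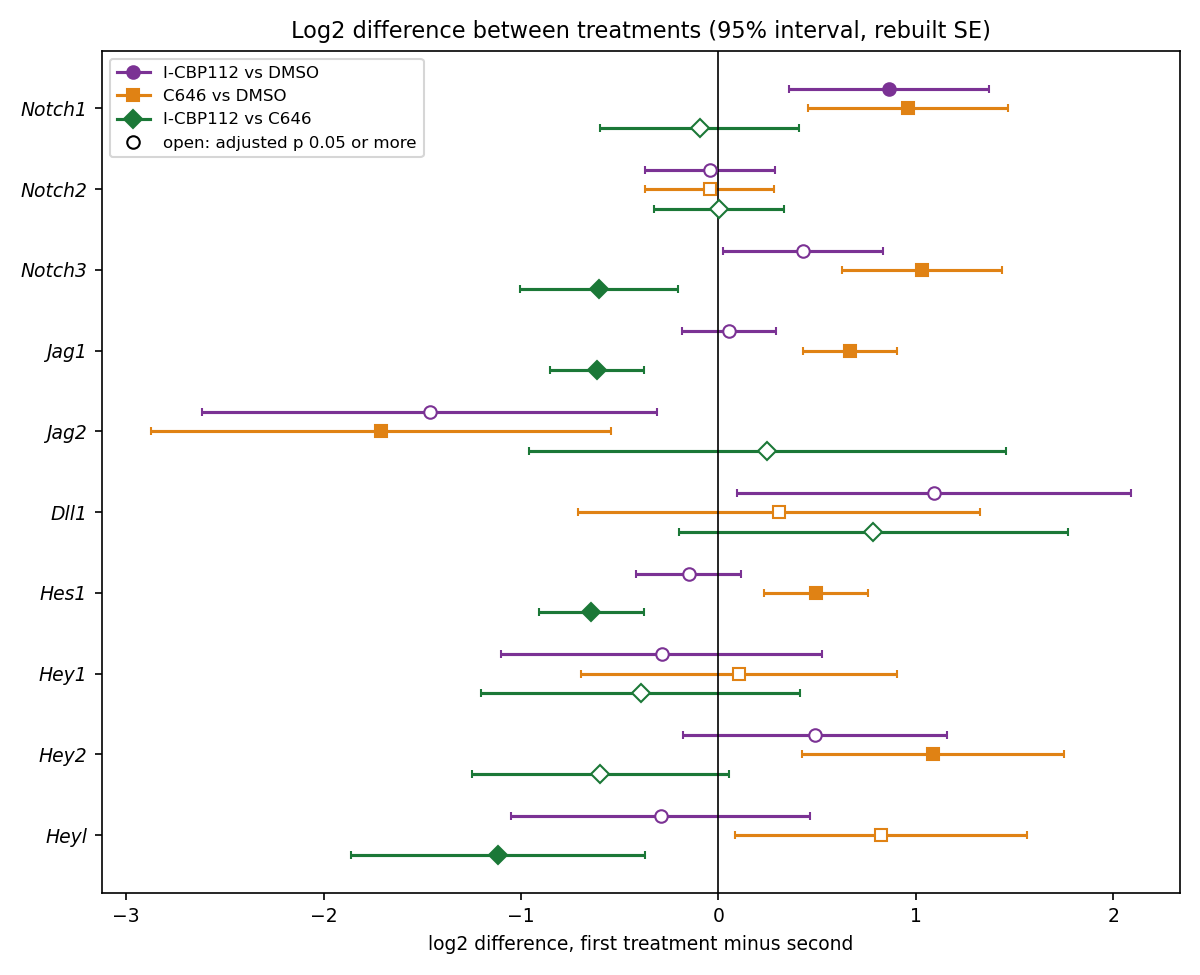
Log2 difference between treatments of the 10 genes for I-CBP112 minus DMSO, C646 minus DMSO and I-CBP112 minus C646; bars are 95% intervals from the rebuilt SE, and filled symbols mark an adjusted p below 0.05. C646 lies above DMSO for Notch1, Notch3, Jag1, Hes1 and Hey2 and below it for Jag2; I-CBP112 lies below C646 for Notch3, Jag1, Hes1 and Heyl and above DMSO for Notch1.

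Of 59 other pathway genes in a list made by role, 51 had an adjusted p in the DMSO and I-CBP112 tables, which leave out genes with a mean normalised count under 26.1. By the authors' tables as deposited, 3 of the 51 rose and 5 fell with DMSO, and 0 rose and 5 fell with I-CBP112; with C646 0 of 59 passed, and 0 had an unadjusted p under 0.05. The median log2 fold change of the tested ones was 0.02 for DMSO, -0.05 for I-CBP112 and 0.01 for C646 in the authors' deposited tables. With every value centred on the median gene, 1 rose and 5 fell with DMSO, so the split between higher and lower depends on that scaling. The shares of all tested genes were 8.07% higher and 7.90% lower with DMSO, and 4.65% higher and 5.25% lower with I-CBP112.

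Among other receptors and ligands, Dlk1, a Delta-like protein without the usual receptor-binding domain, fell with DMSO, at -0.42 ± 0.15 (adjusted p = 0.0316) in the authors' deposited table. Notch4, with a level of 110 ± 63.5 under DMSO and 37.6 ± 22.0 under ethanol, had too wide an error for a call, at 1.55 ± 1.20 (adjusted p = 0.452) in the authors' deposited table. None of the 4 tested glycosyltransferases passed; the most abundant, Pofut1, which adds the fucose that receptors need, was at -0.02 ± 0.13 with DMSO in the authors' deposited table. None of the 4 ligand endocytosis genes passed either, with Mib1, the ubiquitin ligase that activates ligands, at 0.25 ± 0.16 with DMSO in the authors' deposited table. Of 10 protease genes 2 rose with DMSO in the authors' deposited table: Adam17, a sheddase that can cut Notch, at 0.46 ± 0.13 (adjusted p = 0.00351), and Aph1b, a gamma-secretase subunit, at 0.40 ± 0.14 (adjusted p = 0.0353). Of the 3 other pathway genes that rose with DMSO, 1 was left with centring on the median gene and 1 with no filter. Adam17 had the lowest adjusted p of the 3, so the Aph1b call was lost in both settings. Ncstn, nicastrin, the most abundant of the class, was at 0.12 ± 0.12 with DMSO in the authors' deposited table.

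In the nuclear complex 1 of 9 genes passed, Maml2, a Mastermind-like coactivator, lower at -0.44 ± 0.16 (adjusted p = 0.0311) with DMSO and at -0.63 ± 0.16 (adjusted p = 0.00114) with I-CBP112 in the authors' deposited tables. Kat2b, an acetyltransferase and the most abundant of that class, was at 0.03 ± 0.13 with DMSO and 0.23 ± 0.13 with I-CBP112 in the authors' deposited tables. Of 9 corepressors Tle1, a Groucho-type corepressor, rose with DMSO at 0.38 ± 0.14 (adjusted p = 0.0378) in the authors' deposited table, and Ncor1, the most abundant, was at -0.10 ± 0.13. The Tle1 call, like that of Aph1b, was lost with centring on the median gene and with no filter. The inhibitors and turnover factors held 2 of 8 genes lower with DMSO and 3 with I-CBP112. Numbl, a Numb-like antagonist, was at -0.48 ± 0.13 (adjusted p = 0.00413) with DMSO and -0.53 ± 0.13 (adjusted p = 0.00176) with I-CBP112 in the authors' deposited tables. Fbxw7, a ubiquitin ligase subunit that marks the intracellular domain for destruction, was at -0.44 ± 0.15 (adjusted p = 0.0201) and -0.49 ± 0.15 (adjusted p = 0.0118) in the same 2 comparisons of the authors' deposited tables. Dtx4, a Deltex ubiquitin ligase, was at -0.65 ± 0.15 (adjusted p = 0.000388) with I-CBP112 in the authors' deposited table, and Itch, the most abundant of the class, at -0.05 ± 0.12. Dtx4 was also lower with I-CBP112 than with C646 (-0.71 ± 0.15, adjusted p = 7.24e-05) and than with DMSO (-0.54 ± 0.15, adjusted p = 0.00794), in the test between treatments. In the same test Adam17 was lower than with DMSO both with I-CBP112 (-0.55 ± 0.13, adjusted p = 0.000590) and with C646 (-0.45 ± 0.13, adjusted p = 0.00432). Of the 51 tested genes, 1 was higher and 2 were lower with I-CBP112 than with DMSO, 3 were higher and 3 lower with C646 than with DMSO, and 1 was higher and 6 were lower with I-CBP112 than with C646. The shares of all tested genes were 4.31% higher and 2.66% lower between I-CBP112 and DMSO. They were 7.98% and 7.86% between C646 and DMSO, and 4.69% and 5.11% between I-CBP112 and C646. Among 4 tested other targets, the cyclin Ccnd1 was lower at -0.81 ± 0.18 (adjusted p = 0.000104) with DMSO and -0.51 ± 0.18 (adjusted p = 0.0417) with I-CBP112 in the authors' deposited tables. Hes2, Hes3, Hes5 and Hes7 were not tested there, with mean normalised counts between 1.72 and 15.2.

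**Figure D4:**
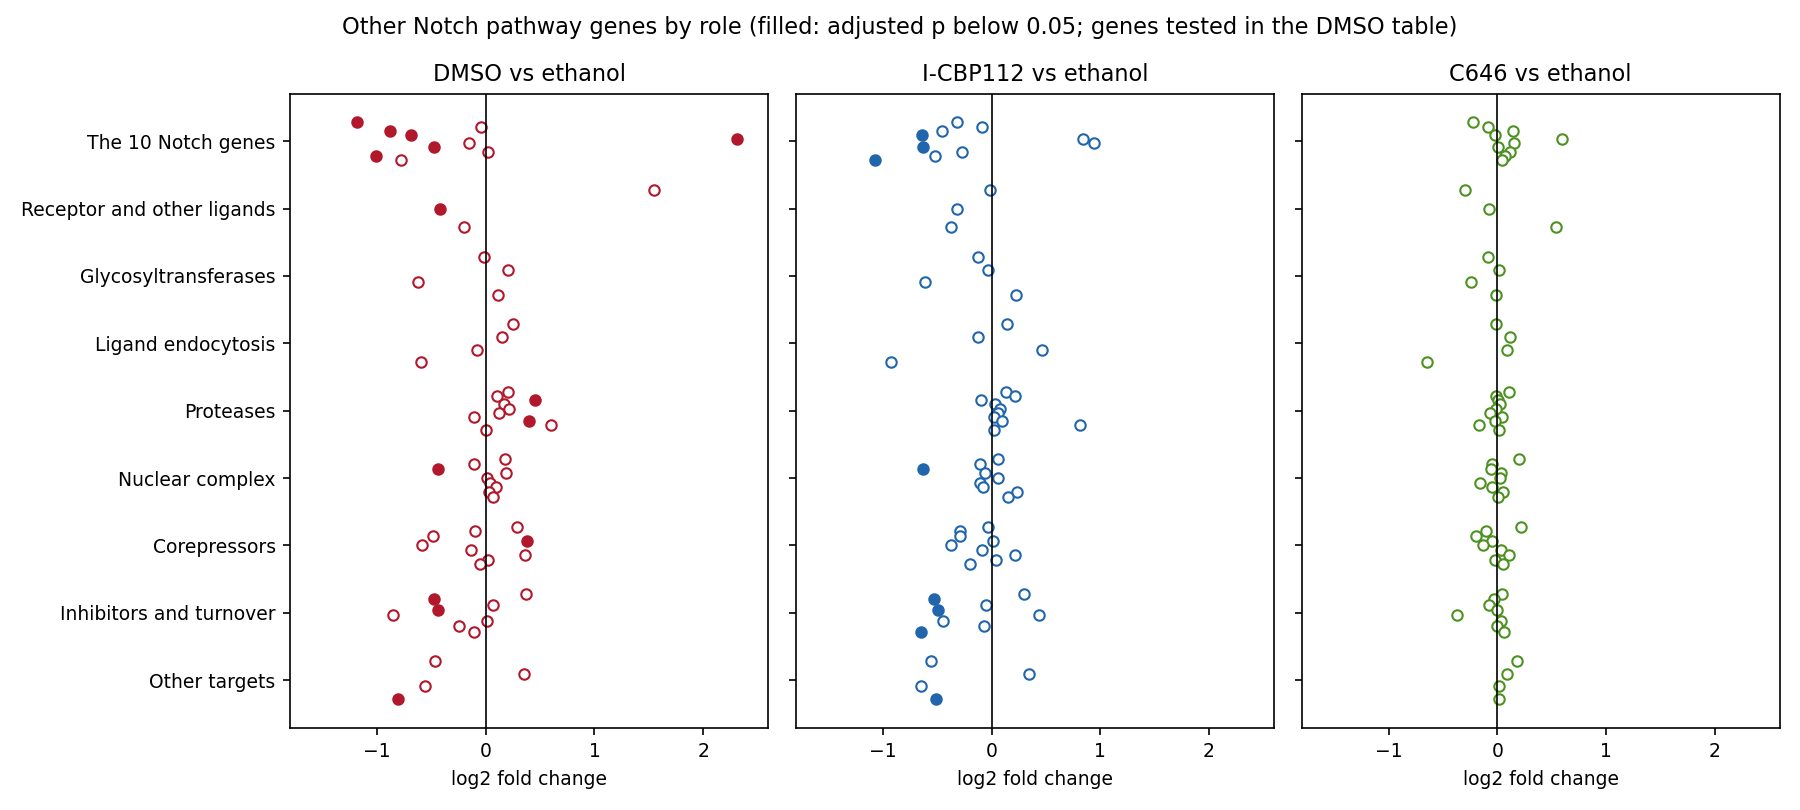
Log2 fold change over ethanol with DMSO, I-CBP112 and C646 of the 10 Notch genes and of the other pathway genes by role, for genes that have an adjusted value for DMSO; each point is a gene, and filled points have an adjusted p below 0.05. With DMSO 6 of the 10 genes in the top row are filled, against 8 of the 51 below it; with C646 no point is filled.

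Genes of other kinds lay close to these in the 3 fold changes. Likeness was taken as the Euclidean distance between the 3 log2 fold changes, over 12037 named genes averaging at least 50 normalised counts, for the 3 Notch genes with the largest Wald statistics. Nearest to Jag1 were Acot2 at a distance of 0.0486, Bnc1 at 0.0559 and Rftn1 at 0.0572. Nearest to Hes1 were Trpm3 at 0.0332, Hrct1 at 0.0490 and Cpa6 at 0.0564. Trpm3 and Hrct1 passed in no comparison with ethanol, and the SEs of their DMSO fold changes, 0.403 and 0.292, exceed these distances. Notch1 had Begain at 0.0867, Spred3 at 0.130 and Fn1, fibronectin, at 0.135. The distances of the 3 genes nearest to Jag1 are smaller than the SE of 0.12 on each of its fold changes.

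**Figure D5:**
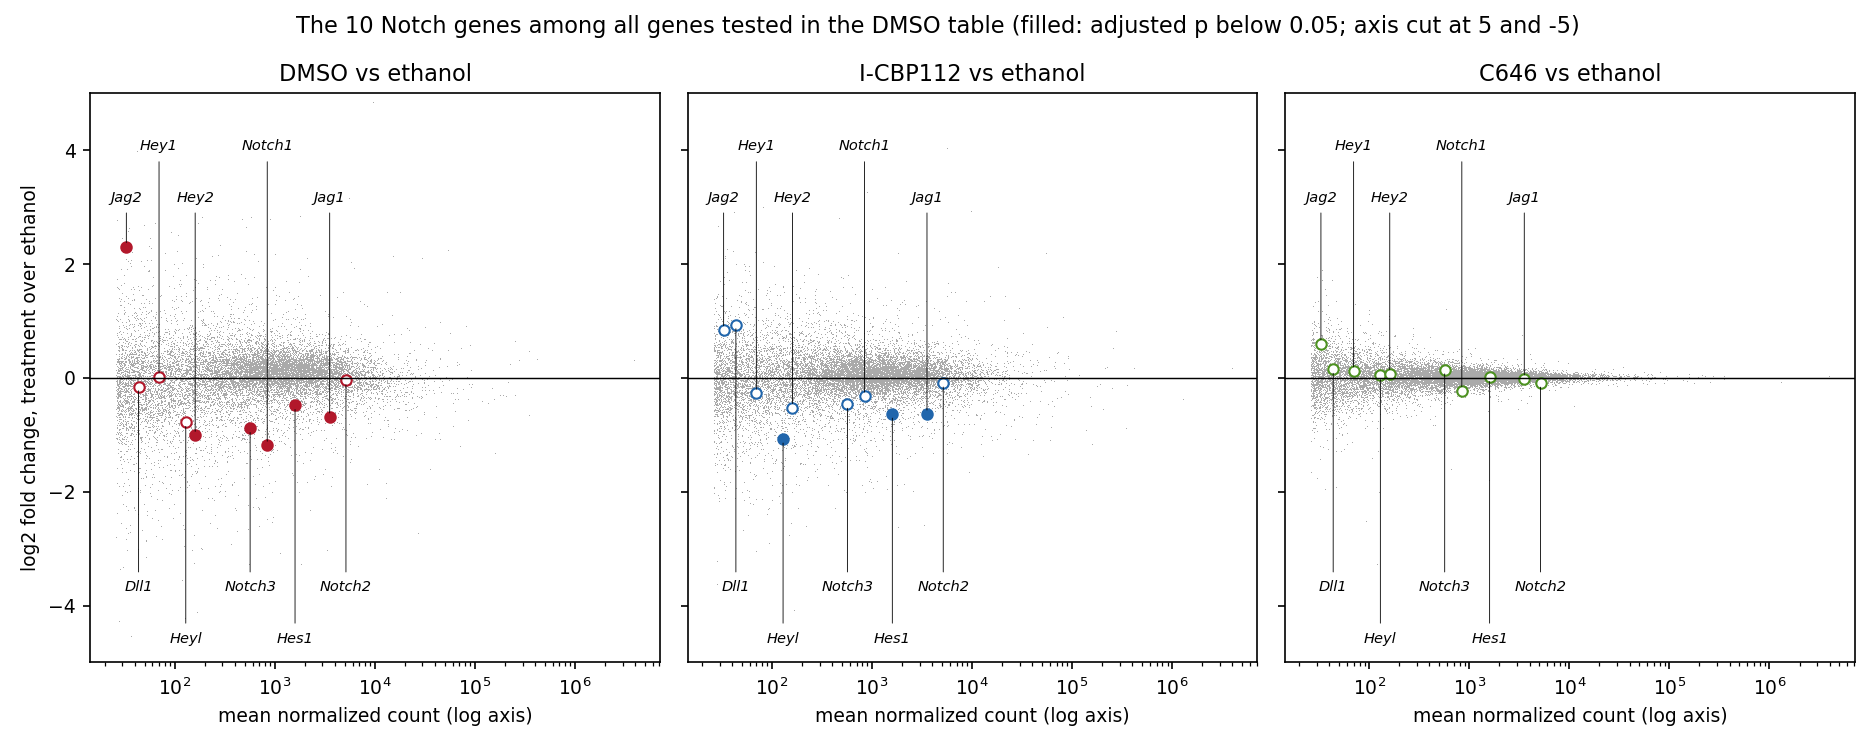
Log2 fold change over ethanol against mean normalised count (log axis) with DMSO, I-CBP112 and C646 for the 14830 genes tested in the DMSO table (grey), with the 10 Notch genes marked and filled where the adjusted p was below 0.05. Jag2 lies at 2.31 with DMSO, above nearly all genes, Notch1 and Hey2 lie in the lower part of the cloud, and the C646 cloud is narrow, with a standard deviation of 0.24 against 0.53 for DMSO.

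Markers of cells that use Notch strongly were also set beside these results. Of 8 endothelial markers 3 were tested, and 1 of them, Tek, fell with DMSO and with I-CBP112, at -1.24 and -0.86 on the log2 scale in the authors' deposited tables. Their summed share was 0.00184% of normalised counts with DMSO, 0.00213% with I-CBP112, 0.00307% with C646 and 0.00312% with ethanol. Kdr and Tek held most of the summed level in each group, so the sum mainly follows these genes. With DMSO 6 of the 8 log2 fold changes lay below 0 and 2 above it, those of Pecam1 and Tie1. No marker had a level of 0, but 3 of the 8 had a mean count below 10, among them Cdh5 at 6.49. Their part in the lower Notch1 and Hey2 levels was not tested. Fibroblast markers had 6 of 8 members lower with DMSO and 6 of 8 with I-CBP112, and cardiomyocyte markers had 6 of 8 and 8 of 8 higher, by the authors' deposited tables. Of all tested genes 7.90% were lower and 8.07% higher with DMSO, and 5.25% lower and 4.65% higher with I-CBP112. Of 5 tested macrophage markers 0 passed with DMSO and 2 fell with I-CBP112, and of 3 tested neural markers 0 passed with either, by the authors' deposited tables. The macrophage share lay between 0.00688% and 0.00849% of normalised counts and the neural share between 0.0109% and 0.0182%. With C646 0 of the markers on any of these lists passed. The part of these fibroblast and heart muscle markers in the Notch results was not tested.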

How the data were processed

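RNA of 8 libraries was sequenced from TruSeq libraries, per the labels. Per the submitters' processing notes, the authors used kallisto 0.43.1, DESeq2 and the build GRCm38.p5. The deposited files are 3 comparison tables. In them baseMean is a signal, the authors' normalised count averaged over the 8 libraries; it did not differ between tables for any of 50600 genes; the deposited log2 fold change and its SE are the authors', the Wald statistic is a deposited score, and the p-value and adjusted p are the authors' own. Adjusted values are given for 14830 genes with DMSO and I-CBP112 and for 34250 with C646.

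Group levels, a dispersion per gene and errors between treatments were rebuilt from these columns with Python 3.11.15, numpy 2.4.6 and scipy 1.17.1. For 98.9% of genes in the DMSO table, and 99.0% in each of the other tables, the rebuilt SE was within 1% of the deposited one. The dispersion of each gene was taken from the same 3 deposited errors, so that closeness is partly built in. Errors between treatments have no deposited value to be set against. The rebuilt SE was also tested on counts simulated under the same model with the dispersion known. That test does not cover errors in the dispersion or a spread shared by libraries. A call is an adjusted p below 0.05. The error is the deposited SE, with a median of 0.185 over tested genes; read depth per library is not known here. Positions come from GENCODE M21, in which 50376 identifiers were found, ignoring version numbers. The 10 genes, the other pathway list, the markers and the tests were chosen with earlier results of these data known. Named were all 10 genes, other pathway genes past the threshold against ethanol or most abundant in their class, and the 3 most alike of 3 genes; Notch4 and the untested Hes genes were added after their values were seen. Alternatives were other scalings, no filter or a minimum of 50 counts, a 2-fold minimum, a t distribution and an upper bound of the error between treatments.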

Additional observations from a re-analysis of the deposited data

How the results depend on the processing

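The log2 differences of the 10 genes in the 6 comparisons gave 318 values under alternative settings, of which 282 kept direction and side of the threshold, 33 lost the threshold and 3 changed sign. Only results called in the main setting could lose the threshold, so the 282 include many that were never called. The t distribution accounted for 20 of the 33 and the upper bound of the error for 7. Another 5 were lost with no filter on low counts and 1 with scaling to group totals. The sign changes were of values near 0: Hey1 with DMSO at -0.0029 scaled to group totals and -0.018 centred on the median gene, and Notch2 between I-CBP112 and C646 at -0.0089 centred on the median gene. Under a t distribution, set at 4 degrees of freedom, the number of the 10 called was 0 in all 6 comparisons, and of the other pathway genes also 0. Asking for a change of at least 2-fold left 3 of the 10 with DMSO, 1 with I-CBP112, 0 between I-CBP112 and DMSO, 3 between C646 and DMSO and 1 between I-CBP112 and C646, and 0 other pathway genes with DMSO or I-CBP112. With no filter on low counts 4 other pathway genes passed with DMSO, against 8, and 2 of the 10 between I-CBP112 and C646, against 4; more genes enter the adjustment there. With the upper bound of the error 0 of the 10 passed between I-CBP112 and DMSO, 2 between C646 and DMSO and 2 between I-CBP112 and C646; that error is larger by construction. For C646 against ethanol the tables carry no filter, so that setting gave no separate value; adjustment over the genes of the DMSO table, chosen after seeing the data, gave 0. No paired analysis was possible because the files give comparisons and not values of single libraries, and leaving out single libraries was not run for the same reason. Jag2 and Dll1, with mean counts of 32.9 and 43.6, had the widest rebuilt spread between libraries of the 10, at 37.4% and 31.8%.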

Other observations

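With DMSO 26.3% of 14830 tested genes had an unadjusted p under 0.05, with I-CBP112 19.3% and with C646 0.748% (111 genes), where 5% would be met under a standard normal. The share for C646 is below that level, and the 10 Notch genes lie in the same narrow spread: with C646 their log2 fold changes ran from -0.23 for Notch1 to 0.60 for Jag2 in the authors' deposited table. The files hold no values per library, so whether the errors include a spread shared by libraries of the same number, and whether the C646 and ethanol libraries share cells, was not tested. The C646 intervals and adjusted p-values are those the deposited errors give.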
